A study of Mus musculus with 2 samples.

Results

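A set of 6 noncoding RNAs, Malat1, Neat1, Rpph1, Rmrp, Rn45s and Gas5, was followed through 2 total RNA-seq libraries, 1 from a kidney tumour and 1 from a normal kidney. They were chosen by symbol, with their read counts in these same libraries already known, and are 6 of the 30744 symbols in the deposited count table. Each symbol had 1 row. The values below therefore describe these RNAs and test nothing about them. The tumour carried the genotype labelled Tet-OSKM/mPer2-luc, in which doxycycline switches on the reprogramming factors Oct4, Sox2, Klf4 and Myc and a luciferase reports the clock gene Per2, and its animal received doxycycline. The normal kidney was labelled WT and received none. Per the labels' protocols, chimeric mice were made from embryonic stem cells carrying Rosa26-M2rtTA, TetO-OSKM and mPer2-luc, and the text stands with both libraries. The background of both is C57BL/6 x DBA/2 F1. The sources used here give neither their age and sex nor whether the normal kidney came from a chimera, and a chimera holds host cells without the transgenes. Rosa26 is active in most tissues, so the kidney is not the one place where the factors could be switched on. With 1 library in each group, genotype, doxycycline, tumour and library cannot be told apart. No p-value was computed, and intervals (95%) cover counting error only.

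These RNAs do structural or catalytic work rather than code for protein. Malat1 is a long RNA kept in nuclear speckles, where splicing factors gather, and Neat1 is the scaffold of paraspeckles, nuclear bodies that hold RNA-binding proteins. Rpph1 is the catalytic RNA of RNase P, which trims the leaders of transfer RNA precursors, and Rmrp is the RNA of the related RNase MRP, which takes part in cutting the ribosomal RNA precursor. Both are short products of RNA polymerase III. Rn45s is the ribosomal RNA precursor itself, made by RNA polymerase I in the nucleolus, and Gas5 is a spliced transcript whose introns carry small nucleolar RNAs (snoRNAs), guides for modifying ribosomal RNA.

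The members touch each other in sequence and in processing. RNase P, with Rpph1 as its RNA, cuts the nascent Malat1 and Neat1 transcripts just after an A-rich tract. That tract folds back on U-rich motifs into a triple helix, which protects an RNA end that has no poly(A) tail. The stretches that carry this end are shown because they are what the 2 nuclear RNAs share and where the third acts. They come from GENCODE M21 transcripts on GRCm38, minus strand. Capitals mark the runs of at least 11 bases that the last 400 bases of Malat1 and the last 100 bases of Neat1 share, and the bases that follow each end are in lower case.
Malat1 end, chr19:5795982-5796073: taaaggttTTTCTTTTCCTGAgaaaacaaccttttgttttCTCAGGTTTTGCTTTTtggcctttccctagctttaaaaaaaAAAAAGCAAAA
Malat1 next bases, chr19:5795924-5795981: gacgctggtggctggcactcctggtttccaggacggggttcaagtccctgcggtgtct
Neat1 end, chr19:5824708-5824805: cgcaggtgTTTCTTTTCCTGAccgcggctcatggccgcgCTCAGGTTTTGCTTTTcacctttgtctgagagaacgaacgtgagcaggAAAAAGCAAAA
Neat1 next bases, chr19:5824652-5824707: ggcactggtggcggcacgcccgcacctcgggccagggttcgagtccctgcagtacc
The shared runs were TTTCTTTTCCTGA, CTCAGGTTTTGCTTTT and AAAAAGCAAAA, the first pair holding the U-rich motifs and the last the A-rich tract. Between the second run and the third lay 25 bases in Malat1 and 32 bases in Neat1. Searched on the given strand of 141767 GENCODE transcripts, AAAAAGCAAAA occurred in 618 (0.436%). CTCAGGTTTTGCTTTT followed by it within 40 bases occurred in 2 (0.00141%), those of Malat1 and Neat1 from which the runs were taken. The bases after the Malat1 tract are those of mascRNA, a small transfer RNA-like product of the cut. The bases after Neat1 belong to a model annotated as Gm27702.

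The 2 RNAs of the nucleases are printed for comparison with each other, from GENCODE M21 on GRCm38, minus strand, Rmrp whole (271 bases) and Rpph1 over the first 300 of its 319 bases. Capitals mark the longest runs that both hold.
Rmrp, chr4:43492788-43493058: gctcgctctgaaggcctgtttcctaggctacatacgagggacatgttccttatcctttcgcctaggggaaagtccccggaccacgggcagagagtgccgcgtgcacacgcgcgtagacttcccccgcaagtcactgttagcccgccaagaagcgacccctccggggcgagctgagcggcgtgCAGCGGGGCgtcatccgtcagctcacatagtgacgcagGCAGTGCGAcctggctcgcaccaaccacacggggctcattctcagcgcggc
Rpph1, chr14:50807468-50807767: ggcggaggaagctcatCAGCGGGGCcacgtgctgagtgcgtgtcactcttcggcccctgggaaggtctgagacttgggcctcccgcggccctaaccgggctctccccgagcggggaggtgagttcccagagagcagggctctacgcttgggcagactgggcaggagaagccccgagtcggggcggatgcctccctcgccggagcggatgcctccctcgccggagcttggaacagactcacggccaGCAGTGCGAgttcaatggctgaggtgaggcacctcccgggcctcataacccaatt
The longest shared runs were 9 bases long. CAGCGGGGC began at base 183 of Rmrp and base 17 of Rpph1, and GCAGTGCGA at bases 221 and 246. How often unrelated sequences of like length and base content share such runs was not tested. Both RNAs were GC-rich, at 64.2% for Rmrp and 67.1% for Rpph1, against 42.5% for Malat1 and 47.3% for Neat1.

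Reads over exons came to 20836819 in the tumour library and 29258428 in the normal library, 62.8% and 72.4% of the totals in the file headers. All 11 tubule markers were called lower in the tumour library, with summed levels of 674 CPM in the tumour and 26317 CPM in the normal library (all CPM here are TMM-scaled). All 4 pluripotency markers were higher, with sums of 1366 and 0.0830 CPM, and Pou5f1 and Dppa5a had 0 reads in the normal library. The 3 markers of dividing cells were higher as well, with sums of 2230.04 CPM in the tumour and 24.6 CPM in the normal library. Podocyte markers summed to 39.1 and 72.1 CPM, endothelial to 81.7 and 251 CPM, macrophage to 71.3 and 62.4 CPM (2 of 3 called higher, Cd68 and Adgre1, and Csf1r not called at a ratio of 0.529), T and B cell to 0.593 and 0.415 CPM, and the red blood cell marker Hbb-bs to 54.6 and 165 CPM. The part these differences in cell make-up have in the values below was not tested.

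Together the 6 RNAs took 5.21% of counted reads in the tumour library (5.198% to 5.217%) and 2.60% in the normal library (2.59% to 2.60%). They held most reads of nuclear noncoding models that could be counted here, 84.8% in the tumour and 83.9% in the normal library. The share that each took of this pool differed. Malat1 took 16.9% of reads over the 6 RNAs in the tumour and 68.2% in the normal library, whereas Rn45s took 52.5% and 11.7%. Rmrp took 16.3% and 6.84%, and Rpph1 took 12.8% and 9.07%. Shares within this pool do not depend on how the libraries were scaled, but each depends on the reads of the other members. Rn45s alone took 2.73% of counted reads in the tumour library and 0.304% in the normal library. Both libraries were depleted of ribosomal RNA. The part of this in the Rn45s reads, and so in the summed share and the other shares, was not tested.

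**Figure D1:**
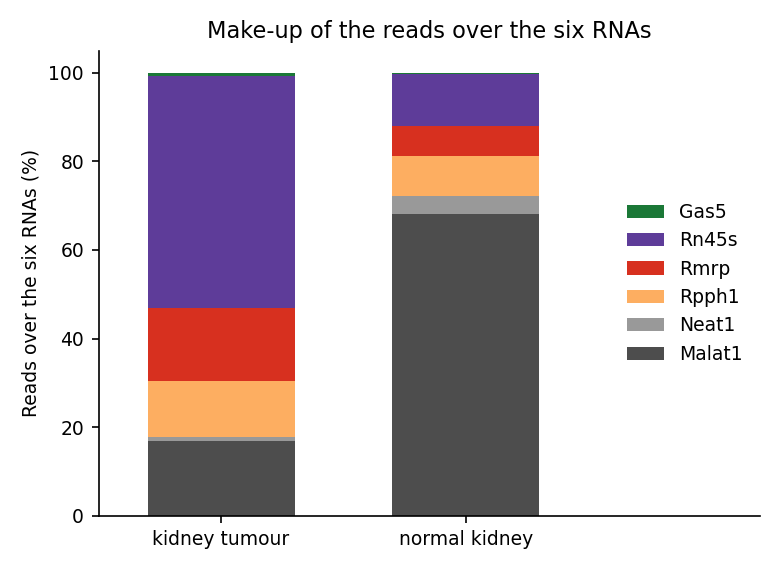
Share of the reads over Malat1, Neat1, Rpph1, Rmrp, Rn45s and Gas5 taken by each, in percent, for the kidney tumour and the normal kidney library (1 bar per library, stacked). Rn45s fills 52.5% of the tumour bar and 11.7% of the normal bar, and Malat1 16.9% and 68.2%.

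The 6 RNAs were not equally abundant by number of reads. Among all 32958 gene models, Rn45s ranked 1st in the tumour and 17th in the normal library, Malat1 3rd and 4th, Rmrp 4th and 34th, and Rpph1 5th and 23rd. Neat1 ranked 296th and 77th. Gas5 ranked 398th in the tumour library and 2853rd in the normal library, the lowest rank of the 6 in both.

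Of the 6 RNAs, Rmrp, Rn45s and Gas5 were called higher in the tumour library, Malat1 and Neat1 lower, and Rpph1 neither. A call means a change of 2-fold or more whose interval excludes 1. Such calls were common: of 16326 symbols with at least 20 reads over both libraries, 31.2% were called higher and 28.0% lower, 59.2% in all, so the count of members called carries no weight of its own. Among 1092 nuclear noncoding symbols the shares were 35.2% higher and 26.2% lower. The share of higher among all calls was 52.7% with TMM, 67.6% with plain CPM and 65.0% with CPM that left out mitochondrial models and the 6 RNAs. The median log2 ratio of all measured symbols, 0.08 with TMM, was higher by 0.56 and 0.45 with these 2 scalings, by 0.35 with header totals and by 0.32 with RPKM.

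**Figure D2:**
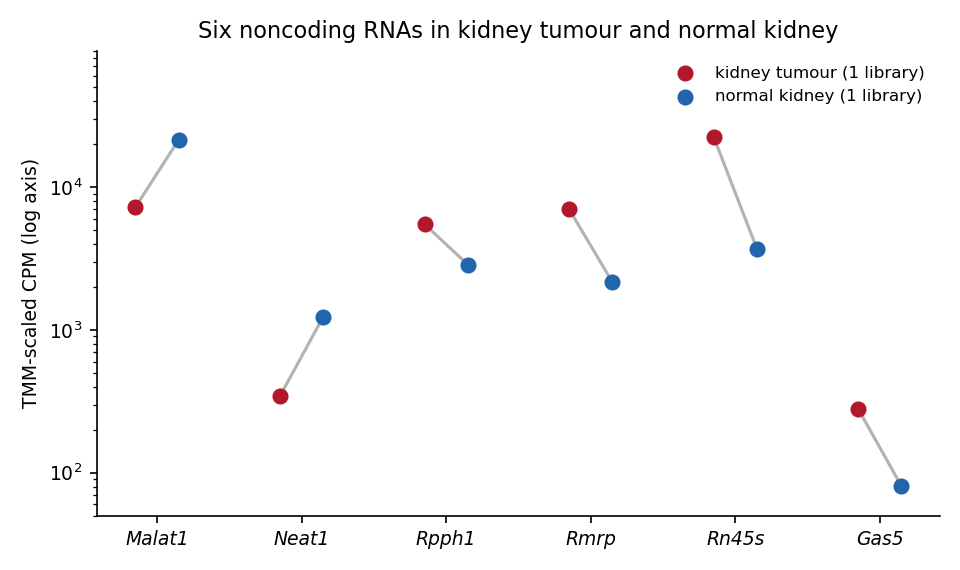
TMM-scaled CPM (log axis) of each RNA in the kidney tumour library (left point) and the normal kidney library (right point), 1 library each. Malat1 and Neat1 are lower in the tumour (7245 against 21501 CPM and 344 against 1238 CPM), and the other 4 RNAs are higher.

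Malat1 and Neat1, the RNAs of nuclear bodies, were both lower in the tumour. Malat1 (chromosome 19, 5795690 to 5802671 on mm10, minus strand, a single-exon noncoding gene) had 183227 reads in the tumour and 518288 reads in the normal library, which are 7245 and 21501 CPM. The tumour library was thus 2.97-fold lower (2.95 to 2.98). Under the 5 other scalings it lay between 2.01-fold lower (plain CPM) and 2.98-fold lower. The mitochondrial share of counted reads was 1.22% for the tumour and 10.6% for the normal kidney, and the part of this in the scalings was not tested. In a bulk sample, fewer cells that make an RNA and less RNA per cell cannot be told apart.

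Neat1 (chromosome 19, 5824710 to 5845480, minus strand) had 8712 reads in the tumour and 29853 reads in the normal library. Its level was 344 CPM in the tumour and 1238 CPM in the normal library, 3.60-fold lower (3.51 to 3.68). The counted model is the long isoform, which contains the short one, so the isoforms cannot be told apart. Per length, Malat1 was the more abundant of the pair by far, with 791 RPKM in the tumour and 1837 RPKM in the normal library, against 12.6 and 35.6 RPKM for Neat1.

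Both RNAs were lower by similar factors. Malat1 stood at 62.6 times Neat1 per length in the tumour and at 51.7 times in the normal library, a ratio that differed 1.21-fold (1.18 to 1.24, exact conditional interval). This comparison is free of library scaling. Of measured symbols, 20.3% had a smaller ratio of tumour to normal than Malat1 and 17.3% a smaller one than Neat1, so neither stood at the edge of the range. The measured genes nearest to Neat1 in level in both libraries were Syne2, a nuclear envelope protein gene (278 CPM in the tumour and 1139 CPM in the normal library), and Lamp1, a lysosomal membrane protein gene (274 and 1236 CPM). Those nearest to Malat1 were the mitochondrial models DQ539915 and AK018753, at distances of 1.23 and 2.03 log2 units, so no gene had a level like it in both libraries.

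RNA levels of genes for protein partners of these nuclear bodies mostly went the other way, and protein was not measured. Among 15 paraspeckle protein genes, 11 passed upward, none downward and 4 were not called (median log2 ratio 1.56). Of all measured symbols, 31.2% were called higher. Nudt21, a cleavage factor subunit, was 4.78-fold higher (3.57 to 6.51) from 276 and 55 reads. Pspc1, a paraspeckle core protein, was 4.31-fold higher (3.90 to 4.77), at 85.1 CPM in the tumour and 19.7 CPM in the normal library. Sfpq, which Neat1 needs for its stability, was 3.86-fold higher (3.69 to 4.04), at 388 and 100.5 CPM. Among 15 nuclear speckle protein genes the counts were 10 and none, with 5 not called (median 1.22). The splicing factor Srsf7 was higher by 4.47-fold (4.23 to 4.74) and Srsf3 by 3.82-fold (3.62 to 4.02). Rnps1, of the exon junction machinery, was higher by 3.95-fold (3.51 to 4.45). The median over all measured symbols was 0.08.

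**Figure D3:**
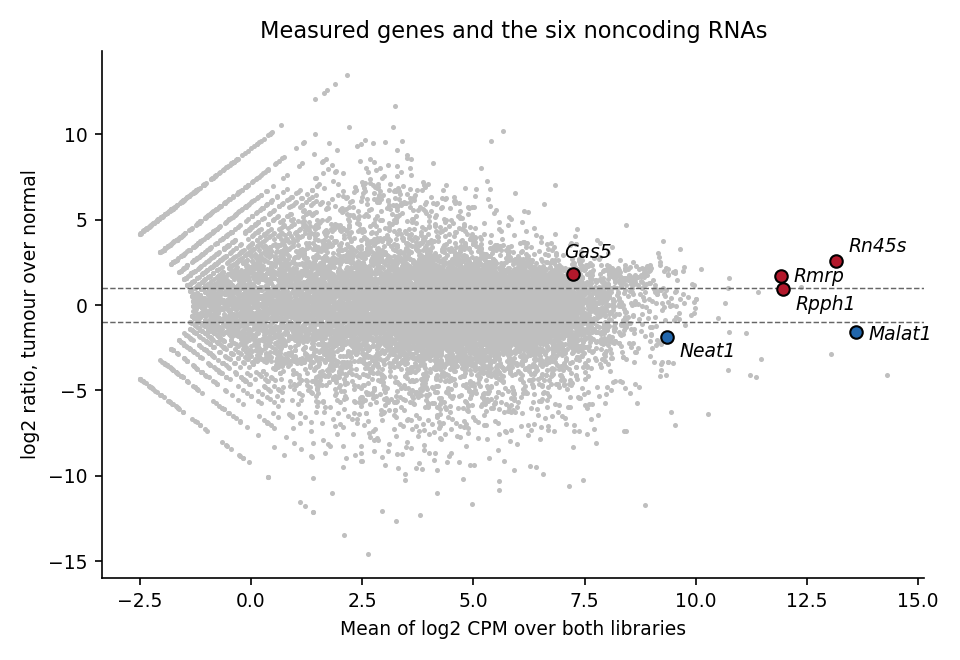
Each of 15589 measured symbols with reads in both libraries is a grey point, by its mean log2 CPM (horizontal) and its log2 ratio, tumour over normal (vertical); dashed lines mark 2-fold. Malat1 and Neat1 (blue) lie below the lower line, Rmrp, Rn45s and Gas5 (red) above the upper one, and Rpph1 (red) just under it.

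Rmrp and Rpph1, the catalytic RNAs, were the models with the highest values per length in the tumour library, at 19506 RPKM for Rmrp and 12930.2 RPKM for Rpph1. In the normal library they ranked 6th and 5th, at 4693 and 5267 RPKM. Their models are 274 and 324 bases long, not much longer than a sequencing fragment, and a per-length value of such a model depends on the fragments kept in library making, which the sources used here do not give. Ratios between libraries of the same model do not use the length. The fragments kept in each library could still enter them, and the ratio of Rmrp to Rpph1, which was not tested.

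Rmrp (chromosome 4, 43492785 to 43493059, minus strand) had 177282 reads in the tumour and 51957 reads in the normal library, or 7009.7 and 2155 CPM. It was 3.25-fold higher in the tumour (3.22 to 3.28). Rpph1 (chromosome 14, 50807447 to 50807771, minus strand) had 138961 and 68952 reads, or 5494 and 2860.4 CPM, and was 1.92-fold higher (1.90 to 1.94). That value missed the 2-fold limit with TMM and with DESeq2 size factors (1.91-fold) and passed it with header totals (2.46-fold) and plain CPM (2.83-fold). The direction was the same throughout.

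The order of the 2 RNAs was reversed between libraries. Rmrp stood at 1.51 times Rpph1 per length in the tumour and at 0.891 times in the normal library, a 1.69-fold difference in ratio (1.67 to 1.72) that no scaling can alter. In level over both libraries the gene nearest to Rmrp was Rpph1, and the nearest to Rpph1 was Rmrp, 0.539 log2 units apart. The next was Eef1a1, a translation elongation factor gene, for both.

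On the opposite strand of Rpph1, the 2 models of BC116202 held 24 reads in the tumour and 22 reads in the normal library, 0.0173% and 0.0319% of the Rpph1 reads. Both nuclease RNAs lie head to head with a protein gene, and these neighbours were looked up after the values of the members were seen. Parp2, a DNA damage-sensing polymerase gene whose model starts 175 bases from that of Rpph1, was 3.19-fold higher in the tumour (2.84 to 3.58), at 49.98 and 15.7 CPM. Ccdc107, which starts 306 bases from Rmrp, had 7.87 CPM in the tumour and 155 CPM in the normal library, 19.7-fold lower (17.1 to 22.9). Rmrp and its neighbour thus had opposite directions, and Rpph1 and Parp2 the same one.

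Genes for the protein subunits of RNase P and RNase MRP did not move as a block. Calls were made for 5 of the 11 genes upward and for 1 downward (median log2 ratio 0.52). Of all measured symbols, 31.2% were called higher and 28.0% lower. For Rpp25, with 344 reads in the tumour against 0 in the normal kidney, a floor of 3 reads gave a 109-fold higher level (interval from 88.4-fold). Rpp30 was 3.68-fold higher (3.06 to 4.45), at 22.3 and 6.06 CPM. Rpp38 was higher by 2.24-fold (1.78 to 2.84) and Pop4 by 2.196-fold (1.97 to 2.45). Pop1, the largest subunit, was higher by 2.06-fold (1.87 to 2.26). Pop5 had 20.4 CPM in the tumour and 48.2 CPM in the normal library, 2.36-fold lower (2.12 to 2.62). It was not called with plain CPM, header totals, RPKM or CPM that left out mitochondrial models and the 6 RNAs. Of the other scalings, only DESeq2 size factors kept the call. Rpp40, Rpp25l, Rpp14, Pop7 and Rpp21 had ratios of 1.43, 1.13, 1.04, 0.910 and 0.619 and were not called. In both libraries the RNAs counted far more reads than any of these genes, whose levels reached 56.0 CPM in the tumour and 48.2 CPM in the normal library at most.

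RNA polymerase III makes Rmrp and Rpph1. Among 27 genes of the polymerase and its factors, 8 passed upward and 1 downward (median log2 ratio 0.56), where 31.2% of all measured symbols were called higher. The upward count was 15 with plain CPM and 14 with CPM that left out mitochondrial models and the 6 RNAs. Calls among all 16326 measured symbols rose as well, from 5097 higher with TMM to 6876 and 6515 with these scalings. Polr3g, the subunit form of pluripotent and dividing cells, was 4.03-fold higher (3.56 to 4.57), at 52.5 CPM in the tumour and 13.03 CPM in the normal library. Polr3gl, its counterpart in differentiated tissue, was the gene called lower, with 2.89 CPM in the tumour and 17.4 CPM in the normal library (6.02-fold, 4.69 to 7.83). Polr3b, of the catalytic core, was 2.90-fold higher (2.68 to 3.15), and Pou2f1, an octamer-binding activator of such promoters, 3.72-fold (3.47 to 3.996).

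Few other small RNAs of this kind were listed. In the short list beside them, Vaultrc5, a vault RNA, had 88 and 48 reads and a ratio of 1.75 (1.22 to 2.54), which was not called. Rnu6 had 0 reads in both libraries. Terc, the telomerase RNA, stood in that list although RNA polymerase II makes it. With 1849 reads in the tumour against 0 in the normal kidney, Terc was 587-fold higher at the floor of 3 reads (interval from 477-fold). The table holds 3 of the 8 names, 2 of them with 20 reads or more, and their median log2 ratio of 5.002 rests on the floor for Terc.

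Rn45s (chromosome 17, 39842997 to 39848829, plus strand) had the largest ratio of the 6 RNAs. It had 569883 reads in the tumour and 89071 reads in the normal library, or 22533 and 3695 CPM, 6.10-fold higher (6.06 to 6.14). Of counted reads it took 2.73% in the tumour and 0.304% in the normal library. Per length it stood at 2956 and 379 RPKM. Ribosomal DNA is repeated in the genome while the table holds this 1 model, and the sources used here do not say how reads with several places were treated. The model is 5813 bases long, and reads of the precursor and of ribosomal RNA cut from it cannot be told apart. Both libraries had passed through ribosomal RNA depletion, so the amount of precursor and the completeness of depletion cannot be told apart either. Of measured symbols 14.6% had a larger ratio.

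Malat1 and Rn45s changed places per length. Malat1 stood at 0.268 times Rn45s per length in the tumour and at 4.85 times in the normal library, an 18.1-fold lower ratio (17.9 to 18.3). Gas5 stood below it in both libraries, at 0.0283 times Rn45s in the tumour and 0.0497 times in the normal library, 1.75-fold lower (1.67 to 1.84), although both were higher in the tumour.

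Genes for making and processing the precursor were higher almost throughout. The RNA polymerase I machinery had 12 of 15 genes called higher and none lower (median log2 ratio 1.18). Over all measured symbols the shares were 31.2% higher and 28.0% lower. Taf1d, of the promoter selectivity factor, was 7.67-fold higher (6.93 to 8.50), at 134 and 17.5 CPM. Rrn3, the factor that brings the polymerase to ribosomal DNA, was 3.57-fold higher (3.36 to 3.78), and Polr1a, the largest subunit, 3.50-fold (3.28 to 3.72). For precursor processing the count was 16 of 18 higher and none lower (median 2.32). Npm1, the nucleolar protein nucleophosmin, was 13.5-fold higher (13.1 to 13.9), at 2267 CPM in the tumour and 168 CPM in the normal library. Nop56, a core protein of the snoRNA particles that methylate ribosomal RNA, was higher by 10.7-fold (9.84 to 11.7), and its relative Nop58 by 10.5-fold (9.75 to 11.3). Taf1d and Npm1 have intron snoRNAs or processed copies, and the sources used here do not say how such reads were counted. The 3 markers of dividing cells were higher in the same library, and their part in these values was not tested.

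Gas5 (chromosome 1, 161035166 to 161038537, plus strand) had 7084 reads in the tumour and 1941 reads in the normal library. Its level was 280.1 CPM in the tumour and 80.5 CPM in the normal library, 3.48-fold higher (3.31 to 3.66), and between 3.47-fold and 5.12-fold over the scalings tried. Its model counts 2550 bases of this span as exon, and the sources used here do not say how much intron these hold. Reads of spliced Gas5, of unspliced RNA and of the intron snoRNAs therefore cannot be told apart. Gas5 is known as a transcript that builds up when cells stop growing and that decays during translation when they grow, because it begins with a terminal oligopyrimidine tract like the messages of ribosomal proteins. The RefSeq promoter window (GRCm38.p6, plus strand, 250 bases before to 50 after the start) is shown for this start site. Capitals mark TATATA, 29 bases before the start, and the run of C and T at the start itself.
Gas5 promoter, chr1:161034916-161035215: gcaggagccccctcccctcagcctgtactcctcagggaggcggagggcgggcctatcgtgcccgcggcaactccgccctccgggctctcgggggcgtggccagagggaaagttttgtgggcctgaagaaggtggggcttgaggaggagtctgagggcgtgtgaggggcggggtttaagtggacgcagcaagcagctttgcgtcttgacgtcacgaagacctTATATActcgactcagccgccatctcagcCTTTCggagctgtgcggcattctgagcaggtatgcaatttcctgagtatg
The window begins 250 bases before base 161035166, where the deposited model also starts. The run at the start was 5 bases long. A C at the start followed by at least 4 further C or T was found in 2.51% of 32851 promoter windows. TATATA, which is its own reverse complement, was found in 5.67%, anywhere in the window and not only at the position marked here. Of the other members, Malat1 also had a window in that table.

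The intron snoRNA that the table lists inside Gas5, Snord47, had 15 reads in the tumour and 11 reads in the normal library, too few to tell the libraries apart (ratio 1.30, 0.558 to 3.13). Zbtb37, a zinc finger gene that starts 882 bases away on the other strand, was 1.18-fold higher (1.04 to 1.35). Nearest to Gas5 in level in both libraries were Cpsf6, a cleavage factor gene (279 CPM in the tumour and 82.9 CPM in the normal library), and Cse1l, an exportin gene (287 and 79.2 CPM).

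Other snoRNA host genes were higher with few exceptions. Besides Gas5, 26 were measured: 21 passed upward and 2 downward (median log2 ratio 2.10), against 31.2% and 28.0% of all measured symbols. Nop56, given above, is one of them. Snhg5 was 25.3-fold higher (20.3 to 31.7), from 2252 reads in the tumour and 85 reads in the normal library. Snhg14, the long imprinted host of the Snord115 and Snord116 clusters, was 19.4-fold higher (16.3 to 23.3), and Snhg7 15.1-fold (11.8 to 19.7). Snhg18 had 6.33 CPM in the tumour and 41.2 CPM in the normal library (6.50-fold lower, 5.50 to 7.74), and Snhg11 had 40.2 and 106 CPM (2.64-fold lower, 2.45 to 2.84). Of 8 genes of nonsense-mediated decay, the pathway that removes Gas5 and other spliced host transcripts, Upf1 was called higher at 2.03-fold (1.91 to 2.17), none was lower and 7 were neither. Smg1 at 1.995-fold (1.93 to 2.07) and Smg5 at 1.78-fold (1.69 to 1.87) followed, and the list had a median of 0.66. Of all measured symbols, 31.2% were called higher.

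**Figure D4:**
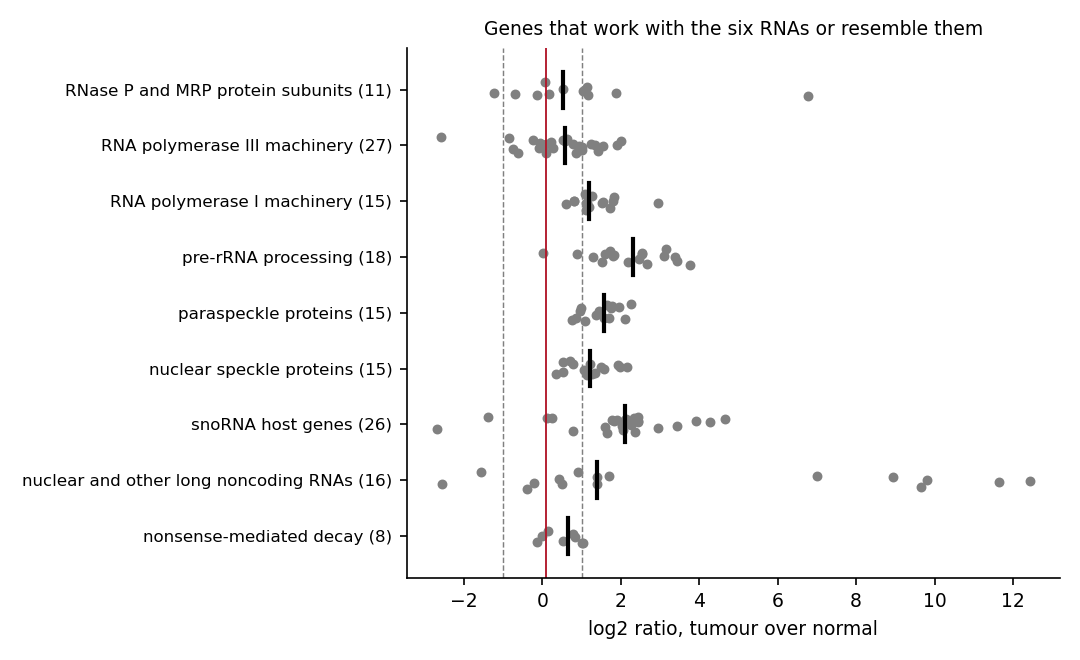
Log2 ratio, tumour over normal, of the measured genes in 9 lists of partners or relatives of the 6 RNAs (grey points, number measured in brackets; scatter within a row has no meaning), with the list median (black bar), the median of all measured symbols (red line, 0.08) and 2-fold (dashed lines). Medians of the lists drawn run from 0.52 for RNase P and MRP subunits to 2.32 for precursor processing; the list of other small RNAs, with 2 measured, is not drawn.

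Other long noncoding RNAs did not share one direction. Calls among the 16 measured were 9 upward and 2 downward (median log2 ratio 1.39), against 31.2% and 28.0% of all measured symbols. The largest ratios were those of H19, Rian and Mirg, which are imprinted. H19, with 17443 reads in the tumour against 0 in the normal kidney, was 5542-fold higher at the floor of 3 reads (interval from 4506-fold). Rian had 13385 and 4 reads (3189-fold, 1245 to 11707), and Mirg 2815 and 0 reads, 894-fold at the floor with an interval from 727-fold. Peg13, an imprinted RNA of the nervous system, was 2.96-fold lower (2.58 to 3.40), and Pantr1, chosen after its value was seen, was the other lower one, at 0.198 and 1.16 CPM. A further pair, picked after their values were seen, show the spread: Kcnq1ot1 was 3.25-fold higher (3.13 to 3.36), and Tug1 had a ratio of 1.33 (1.27 to 1.41).

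**Figure D5:**
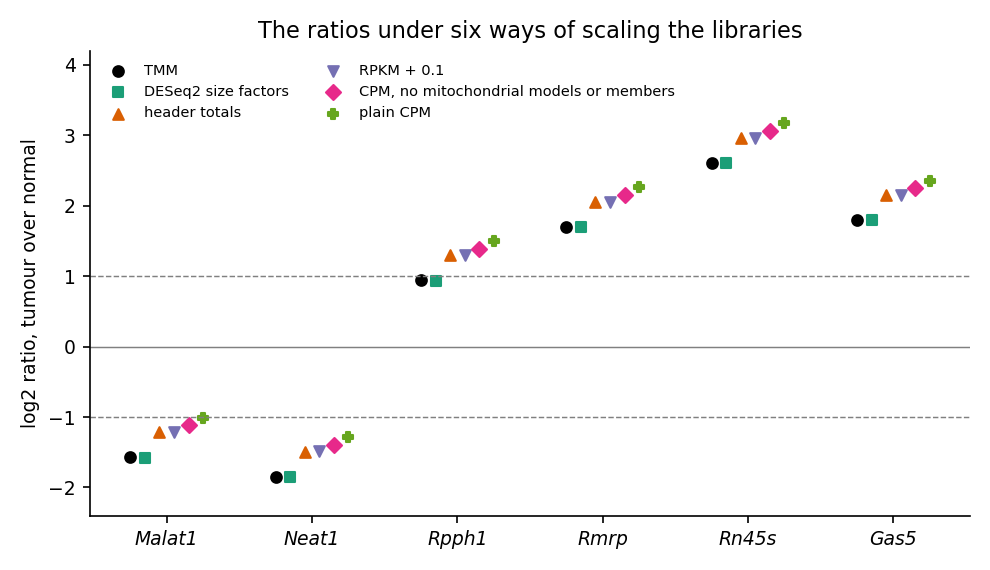
Log2 ratio, tumour over normal, of each RNA under 6 ways of scaling the libraries (symbols), with lines at 0 and at 2-fold (dashed). Malat1 and Neat1 stay at or below -1.01, Rmrp, Rn45s and Gas5 above 1.69, and Rpph1 runs from 0.94 to 1.501 across the upper 2-fold line.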

How the data were processed

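Stranded libraries were made from total RNA after ribosomal RNA depletion, per the labels' protocols. Build mm10 and the tools STAR 2.5.0c, HOMER and bcl2fastq are named in the submitters' processing notes, without role or order. Read counts over the exons of 32958 gene models were deposited as whole numbers, and RPKM were deposited beside them, equal to count over length and header total (33169818 reads for the tumour, 40408775 for the normal library) to within 1.80e-06. The sources used here do not say how reads with several places were treated or which strand setting was used.

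Counts were scaled with TMM (edgeR 4.0.16, R 4.3.3), with factors of 1.21 for the tumour and 0.824 for the normal library, from symbols with at least 20 reads over both libraries. For a symbol with several rows, the row with most reads was kept. Ratios are tumour over normal with exact conditional 95% intervals for counting error, in which PCR duplicates count as reads of their own. A count of 0 was set to a floor of 3 reads (0.119 CPM in the tumour, 0.124 CPM in the normal library). A call needs a ratio of 2-fold and an interval excluding 1. A count test between groups was not run, since each has 1 library. Python 3.11.15, numpy 2.4.6, pandas 2.3.3, scipy 1.17.1, matplotlib 3.10.9 and DESeq2 1.42.0 (size factors) were also used.

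The members and lists were chosen with earlier results of these data known. Named were the 6 RNAs, overlapping models with at least 20 reads, all genes of 2 lists (nuclease subunits, small RNAs), in each other list the 3 largest ratios in the direction of its median and the 2 largest called in the other, at a mean of at least 1 CPM, and the 2 genes nearest to each RNA in log2 CPM. Alternatives were 5 other scalings, 2 other filters and summing rows of a symbol.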

Additional observations from a re-analysis of the deposited data

How the results depend on the processing

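For the 6 RNAs, direction was the same under each of the 5 other scalings (plain CPM, header totals, DESeq2 size factors, RPKM plus 0.1, CPM without mitochondrial models and the 6 RNAs). Rpph1 passed 2-fold with plain CPM (log2 ratio 1.501), header totals (1.30), RPKM (1.30) and CPM without mitochondrial models and members (1.39), and missed it with TMM (0.94) and DESeq2 size factors (0.94). Summing the rows of a symbol left every value as it was, each member having 1 row. Calls over the lists numbered 100 with TMM and between 98 and 126 otherwise. Counts that moved by over 1.5 times were those of RNA polymerase III genes called higher (8 with TMM, 15 with plain CPM, 14 without mitochondrial models and members), of nonsense-mediated decay genes called higher (1 with TMM, 5 with plain CPM, 4 with header totals, RPKM and CPM without mitochondrial models and members), and counts of at most 2 genes: nuclease subunits called lower (Pop5), snoRNA hosts called lower (Snhg11), small RNAs called higher (Vaultrc5) and long noncoding RNAs called lower (1 at 100 reads or more). Of 16326 measured symbols, 5097 were called higher with TMM, 6876 with plain CPM and 6515 with CPM without mitochondrial models and members. The number was 6194 with header totals and 5936 with RPKM. No paired analysis was possible because each group holds 1 library. Depth did not limit the members, whose lowest count was 1941 reads; it limits Snord47 and the antisense models.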

Other observations

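Models of small nucleolar, Cajal body and spliceosomal RNAs, most of them guides for modifying other RNAs, were mostly higher in the tumour library. They were picked by the prefix of their symbol (Snord, Snora, Scarna, Rnu) after values had been seen, so the counts describe and test nothing. Of 65 measured models 43 were called higher, 2 lower and 20 neither, with a median log2 ratio of 2.05, against 31.2% higher, 28.0% lower and a median of 0.08 over all measured symbols. Of 31 box C/D snoRNAs (Snord) 22 were higher and none lower, and of 28 box H/ACA snoRNAs (Snora) 19 were higher and 2 lower. Their summed levels were 162 CPM in the tumour and 95.7 CPM in the normal library for Snord, and 213 and 61.02 CPM for Snora.

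Scarna13, with 4237 reads in the tumour and 1556 reads in the normal library, was 2.60-fold higher (2.45 to 2.75), and Snora78, with 2038 and 323 reads, 6.01-fold (5.35 to 6.78). Snord17, a snoRNA of 220 bases with 2295 and 1927 reads, had a ratio of 1.14 (1.07 to 1.21). Snora30 and Snora15 were lower, 3.30-fold (1.77 to 6.52) and 2.89-fold (1.24 to 7.50), from 14 and 44 reads and from 8 and 22 reads. Most of these models lie in introns of host genes and are shorter than a usual sequencing fragment, so unspliced host RNA and the snoRNA cannot be told apart.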
